A study of Mus musculus with 8 samples.

Results

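Genes of the nuclear envelope were followed in Picalm-knockout and PICALM-rescued hematopoietic cells. The 10 genes were the lamin genes Lmna, Lmnb1 and Lmnb2, the nesprin genes Syne1 and Syne2, the SUN genes Sun1 and Sun2, and the inner membrane genes Lbr, Emd and Tmpo. Every probe set whose only gene symbol was one of these was taken, which gave 20 of 22626 probe sets and 10 of 12393 genes. The genes were chosen by their place in the nuclear envelope and by rescued minus knockout log2 differences on these same arrays, whose results were known, and the study itself picked Syne1 from these arrays, so the rescued minus knockout values below are a description and not a test.

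The study asked which transcripts change when PICALM, a clathrin adaptor of endocytosis, is put back into cells that lack it, and it measured RNA on 8 Affymetrix arrays, 4 per group. All cells, controls included, were fetal liver cells of E14 fit1 Picalm fit1-5R embryos, which carry a non-functional Picalm, on the background strain B6(Cg)-TyrC-2J/J, and all had been immortalized by a retrovirus carrying MLL-ENL (MSCV-IRES-eGFP) and serial replating. They grew in RPMI with 10% serum, interleukin-3 at 5 ng/ml and stem cell factor at 50 ng/ml. The Picalm-knockout group carried the empty vector MSCVneo, and the PICALM-rescued group carried human PICALM in that vector, so PICALM was driven by the retroviral vector rather than by the mouse locus. Each group held 1 array of each of 4 cell lines, PICALM6A, PICALM6B, PICALM6D and PICALM84, shortened below to 6A, 6B, 6D and 84. The sources used here do not state whether the lines came from separate embryos. The level of Picalm was not analysed here, so it does not check the labels.

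The nuclear lamina is a meshwork of lamin filaments under the inner nuclear membrane, made of A-type lamins from Lmna and B-type lamins from Lmnb1 and Lmnb2. Nesprins in the outer membrane bind SUN proteins in the inner membrane, and together they form the LINC complex, which couples the lamina to the cytoskeleton. Lbr, the lamin B receptor, binds B-type lamins and heterochromatin at the inner membrane and is also a C14 sterol reductase of cholesterol synthesis. Maturing granulocytes are known for lobed nuclei, which need Lbr, and for little A-type lamin.

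The promoters of the 4 genes on which the results turn are printed as the 250 bases before the start of the first listed transcript, from RefSeq on GRCm38.p6. They are Syne1 at chr10:5550693-5550942 on the minus strand, Syne2 at chr12:75818068-75818317 on the plus strand, Sun2 at chr15:79742537-79742786 on the minus strand and Lbr at chr1:181842402-181842651 on the minus strand, each 5′ to 3′ in the direction of its gene. Capitals mark GGGCGG, the GC box, and CCAAT, the CCAAT box, each on either strand.
Syne1: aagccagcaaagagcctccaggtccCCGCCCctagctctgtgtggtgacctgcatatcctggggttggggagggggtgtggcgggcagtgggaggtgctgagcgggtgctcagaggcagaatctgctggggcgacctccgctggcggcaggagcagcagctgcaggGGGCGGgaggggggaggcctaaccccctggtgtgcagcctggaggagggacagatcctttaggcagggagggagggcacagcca
Syne2: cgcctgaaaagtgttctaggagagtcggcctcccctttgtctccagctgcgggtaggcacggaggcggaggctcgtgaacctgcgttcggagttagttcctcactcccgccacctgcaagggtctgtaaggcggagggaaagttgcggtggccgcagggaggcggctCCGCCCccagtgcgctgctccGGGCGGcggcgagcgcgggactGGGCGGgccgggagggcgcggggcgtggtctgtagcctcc
Sun2: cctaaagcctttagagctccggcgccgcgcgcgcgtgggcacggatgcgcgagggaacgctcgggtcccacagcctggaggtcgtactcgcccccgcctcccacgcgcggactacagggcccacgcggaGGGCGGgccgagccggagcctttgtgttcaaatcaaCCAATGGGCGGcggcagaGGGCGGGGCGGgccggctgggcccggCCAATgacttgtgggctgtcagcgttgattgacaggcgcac
Lbr: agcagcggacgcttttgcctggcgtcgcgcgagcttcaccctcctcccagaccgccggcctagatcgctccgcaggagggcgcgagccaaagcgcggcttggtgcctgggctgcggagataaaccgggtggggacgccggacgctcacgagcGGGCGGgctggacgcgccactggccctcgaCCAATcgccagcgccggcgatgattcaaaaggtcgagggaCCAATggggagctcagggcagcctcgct

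Each of the 4 held at least 1 GC box, which 32.7% of all 32851 promoter windows of this length held. Syne1 had 2, Syne2 had 3, Sun2 had 4, of which some overlap, and Lbr had 1. CCAAT occurred 2 times in Sun2 and 2 times in Lbr, and not in the windows of Syne1 and Syne2, against 33.8% of all windows. The MYC E-box CACGTG (6.02% of all windows), the C/EBP-type motif TTNNGNAA (36.8%), the sterol element TCACNCCAC (1.05%) and TATAAA (12.4%) occurred in none of the 4 windows, and the PU.1-type core GAGGAA (23.3%) occurred 1 time, in Syne2. Syne1 has other listed starts within its 530501 bases, and which transcripts its probe sets read was not analysed here. The window of 1 such start, chr10:5488315-5488564, held 1 C/EBP-type motif and 1 TATAAA. That of another, chr10:5069064-5069313, held neither. These matches are letters in a window and were not tied to any measured level.

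Across the nuclear envelope, the nesprin transcripts were higher in the rescued cells, and Sun2 was higher chiefly in lines 6A and 84. Lbr, Emd and Tmpo lay near 0. Lamin sets had mean log2 differences from -0.19 to 0.17, with 1 dim Lmnb2 set lower in all 4 lines. Syne1 had a mean log2 difference of 1.24 ± 0.68 (SD, n = 4 lines), and Lbr one of -0.04 ± 0.04 (SD, n = 4 lines). With limma, the cell line as a block and a false discovery rate of 12.3%, 0 of the 20 member probe sets were called, against 0.0796% (18) of all 22626. At an unadjusted p under 0.05, 4 members were called against 12.5% of all probe sets. Of these, 3 were higher (6.17% of all probe sets), both Syne1 sets and Syne2, and 1 Lmnb2 set was lower (6.32%). Without the block, limma called 0 members and 0% of all, and 2 members at an unadjusted p under 0.05 against 4.75%. SAM, the test named in the methods, called both Syne1 sets when paired by line (2.62% of all called, 0.539% higher) and only the brighter one when unpaired (0.221% of all, 0.0486% higher). The methods' t-test called 0 members after adjustment and 2 at an unadjusted 0.05, against 5.21% of all probe sets. Over all probe sets the median log2 difference was 0.0027 and the median absolute difference 0.0637, and over the members they were 0.0411 and 0.0556. Counting by direction, 4 member probe sets (both of Syne1, Syne2 and Sun2) had the rescued array above the knockout array in every line, against 12% of all probe sets, and 1 was lower in all 4, against 11.8%.

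**Figure D1:**
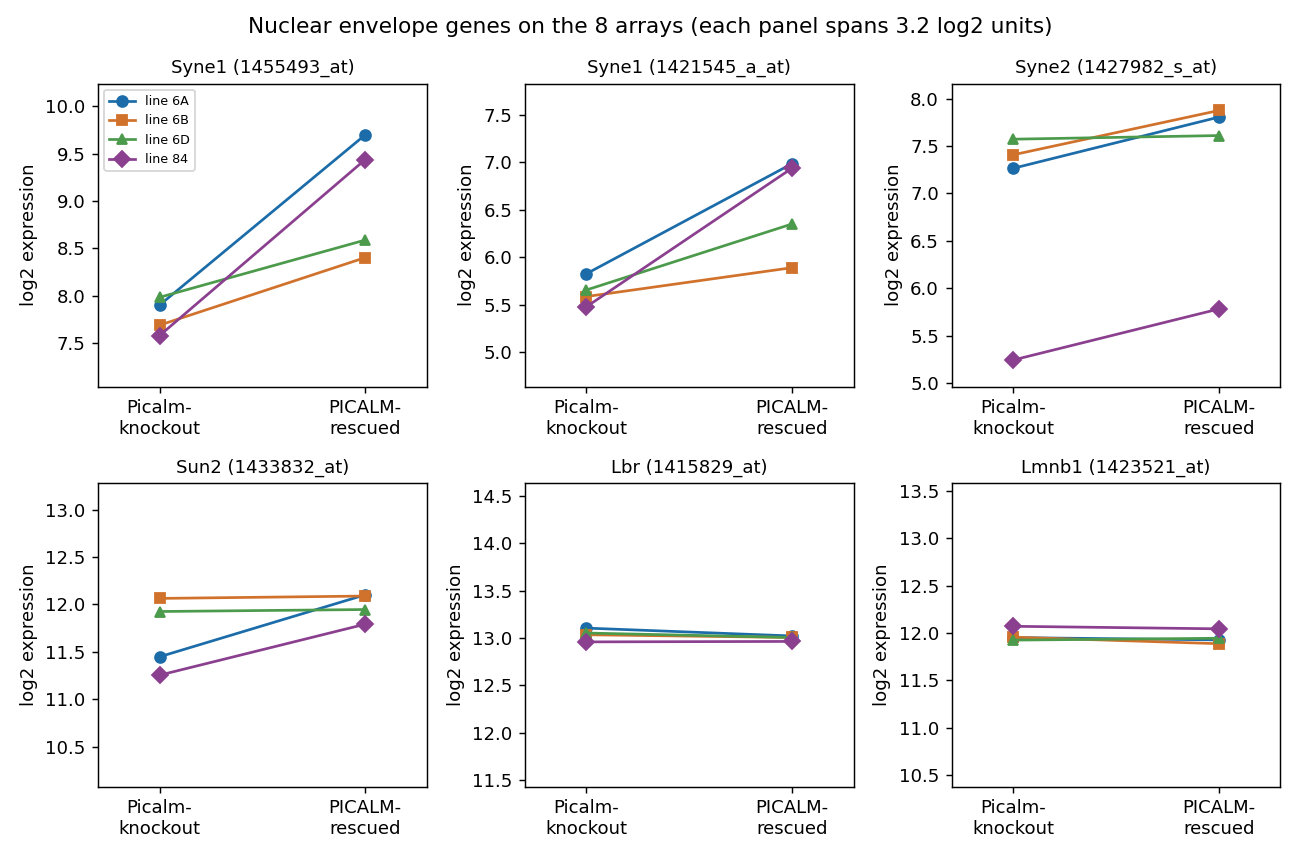
Log2 expression on each of the 8 arrays for 6 of the 20 nuclear envelope probe sets (Syne1, Syne2, Sun2, Lbr and the brighter Lmnb1 set), with the knockout and rescued array of a line joined. The lines for Syne1 run upward in every cell line, those for Lbr are nearly flat near 13, and Syne2 lies lower in line 84 than in the other lines on both arrays.

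Syne1 encodes nesprin-1, a giant outer membrane protein that binds actin, and lies on chromosome 10 from 5020192 to 5550692 (GRCm38.p6). On probe set 1455493_at its log2 level in the knockout arrays was 7.90 in 6A, 7.69 in 6B, 7.98 in 6D and 7.58 in 84. In the rescued arrays it was 9.70 in 6A, 8.40 in 6B, 8.59 in 6D and 9.44 in 84. All 4 rescued arrays lay above all 4 knockout arrays, which 1.88% of all probe sets did (1.57% lay the other way, with 0 members), and 6A and 84 were the highest. The means were 7.79 ± 0.19 and 9.03 ± 0.63 (SD, n = 4 each), a 2.37-fold ratio on the log2 scale, and the rescued arrays thus spread more widely than the knockout arrays. By line the ratio was 3.47-fold in 6A, 1.64-fold in 6B, 1.52-fold in 6D and 3.62-fold in 84. Only 1 pair stands behind each line, so the difference between lines in this ratio was not tested. Its mean absolute difference stood at percentile 99.86 of all probe sets. Leaving out a line moved the mean log2 difference between 1.04 and 1.46.

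The other Syne1 probe set, 1421545_a_at, was dimmer, in the dimmest 40% of the table. Its knockout levels were 5.83, 5.59, 5.65 and 5.48 in 6A, 6B, 6D and 84. Its rescued levels were 6.99, 5.89, 6.35 and 6.94 in the same order. The groups again did not overlap, and 6A and 84 again had the highest rescued arrays. The mean log2 difference was 0.91 ± 0.51 (SD, n = 4 lines), or 1.87-fold, with 1.16 in 6A, 0.30 in 6B, 0.70 in 6D and 1.46 in 84. Line 6B thus had the smallest difference here, while on the brighter set 6D did. The probe sets followed each other over the 8 arrays with a Pearson r of 0.981 and a Spearman rho of 0.976, a description of sets of the same gene on the same arrays.

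Syne2, on chromosome 12 from 75818318 to 76110928, encodes nesprin-2, the other large nesprin. Probe set 1427982_s_at measured it at 7.27 in 6A, 7.41 in 6B, 7.57 in 6D and 5.24 in 84 among the knockout arrays. In the rescued arrays it stood at 7.81, 7.88, 7.61 and 5.78. The rescued array was higher in each line, by 0.54 in 6A, 0.47 in 6B, 0.04 in 6D and 0.54 in 84, and the groups overlapped because line 84 was low in both. The mean log2 difference was 0.40 ± 0.24 (SD, n = 4 lines), or 1.32-fold, at percentile 97.38 of absolute differences. Line 6D, with the smallest difference for Syne2, also had the smallest for Syne1 on the brighter set. Over the arrays Syne2 and Syne1 (1455493_at) had an r of 0.123 and a rho of 0.524.

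Sun2 encodes an inner membrane SUN protein that anchors nesprins, on chromosome 15 from 79724068 to 79742536. Its log2 level on 1433832_at was 11.45, 12.06, 11.93 and 11.25 in the knockout arrays of 6A, 6B, 6D and 84. The rescued arrays had 12.10, 12.09, 11.95 and 11.79. The knockout arrays of 6A and 84 were the low ones, and the rescued array of 84 lay below the knockout arrays of 6B and 6D. The mean log2 difference was 0.31 ± 0.33 (SD, n = 4 lines), with 0.65 in 6A and 0.54 in 84 against 0.02 in 6D and about as little in 6B. Its 95% interval in the blocked fit ran from -0.01 to 0.63, and without line 6A the mean was 0.19.

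Sun1, the other somatic SUN gene, had sets at 0.06 ± 0.19 (1426666_a_at) and 0.01 ± 0.16 (1426667_a_at) in the log2 difference (SD, n = 4 lines). On both, the difference was positive in line 84, at 0.34 and 0.21, and negative in line 6A, at -0.07 and -0.19. The Sun1 sets read the same gene on the same arrays, so they are no independent pair.

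**Figure D2:**
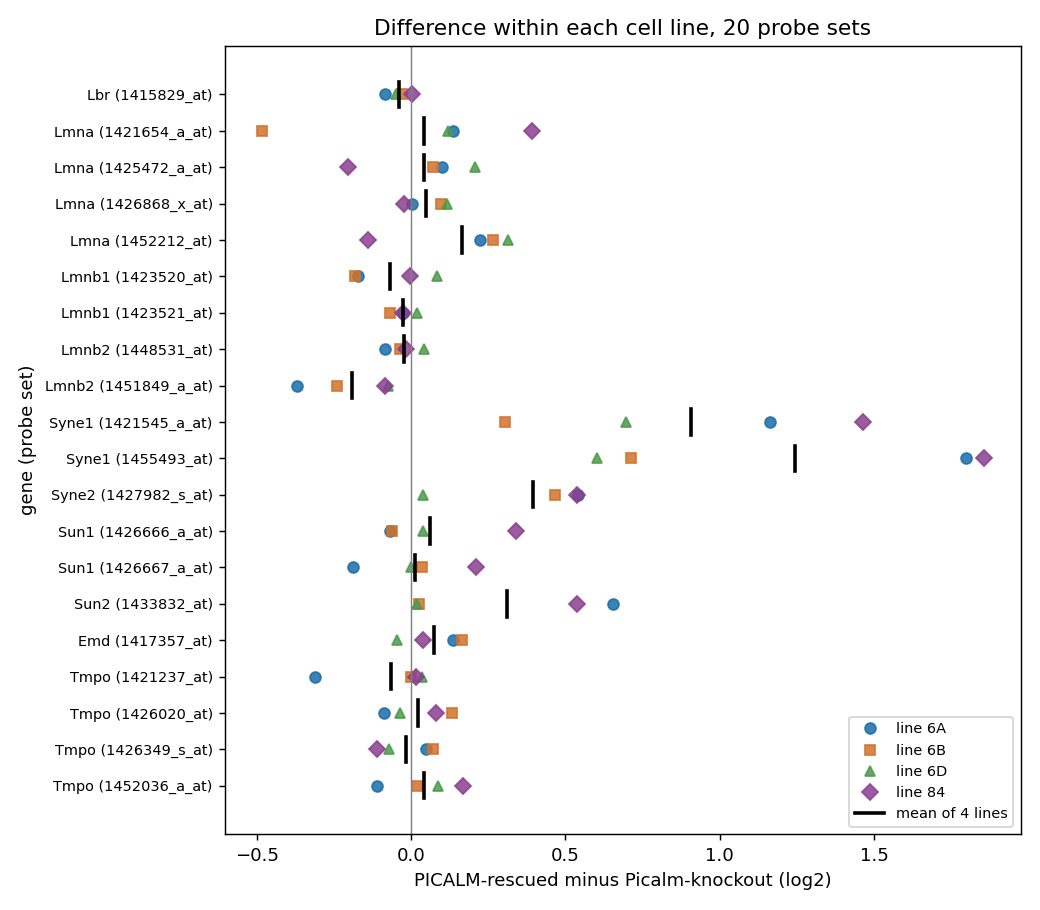
Rescued minus knockout log2 difference of each of the 20 probe sets, 1 point per cell line with the mean. The Syne1 points lie between 0.30 and 1.86 and overlap those of Sun2 and Syne2 at their lower end. Those of Lbr, Emd and Tmpo lie between -0.31 and 0.17.

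The lamin genes had 8 probe sets with mean log2 differences from -0.19 to 0.17. Of these, 0 were higher in all 4 lines, 1 was lower in all 4 and 7 were mixed. Among all probe sets 12% were higher and 11.8% lower in every line. Lmna, on chromosome 3, makes lamins A and C by splicing. Its brightest set, 1421654_a_at, stood at 7.14, 7.27, 7.07 and 6.44 in the knockout arrays and at 7.28, 6.79, 7.19 and 6.83 in the rescued arrays of 6A, 6B, 6D and 84. The difference was 0.14 in 6A, -0.48 in 6B, 0.12 in 6D and 0.39 in 84, a mean of 0.04 ± 0.37 (SD, n = 4 lines), and the groups overlapped. The other 3 Lmna sets, 1425472_a_at, 1426868_x_at and 1452212_at, were all in the dimmest 40% of the table, with means of 0.04, 0.05 and 0.17. The last, 1452212_at, differed by 0.22, 0.27 and 0.31 in 6A, 6B and 6D and by -0.14 in 84, so line 84 stood against the others on this set and 6B on the brightest.

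Lmnb1, a B-type lamin gene on chromosome 18, differed by -0.07 ± 0.13 on 1423520_at and by -0.03 ± 0.04 on 1423521_at (SD, n = 4 lines). The interval of the brighter set, 1423521_at, ran from -0.13 to 0.08. Lmnb2, the other B-type gene, lies on chromosome 10 from 80901363 to 80918245, and its sets went apart in size. Set 1448531_at differed by -0.02 ± 0.05. Set 1451849_a_at, in the dimmest 40%, stood at 6.66, 6.55, 6.44 and 6.13 in the knockout arrays and at 6.30, 6.31, 6.37 and 6.05 in the rescued arrays. It was lower in all 4 lines, with a mean difference of -0.19 ± 0.14 (SD, n = 4 lines), and the groups overlapped.

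Lbr lies on chromosome 1 from 181815315 to 181842401 and was among the brightest probe sets, at percentile 98.16 of the mean level. On 1415829_at the knockout arrays had 13.10, 13.03, 13.05 and 12.96, and the rescued arrays 13.02, 13.01, 13.00 and 12.96, in the order 6A, 6B, 6D and 84. All 8 arrays thus lay within a narrow band, and the groups overlapped. The mean log2 difference was -0.04 ± 0.04 (SD, n = 4 lines), with a 95% interval from -0.14 to 0.065, and the rescued array was lower in 6A, 6B and 6D.

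Emd, on chromosome X, encodes emerin, a LEM-domain protein that binds lamins and chromatin, and differed by 0.07 ± 0.10 on 1417357_at (SD, n = 4 lines). Tmpo encodes the LAP2 proteins, LEM-domain partners of lamins, and its 4 sets had mean log2 differences of -0.06 (1421237_at), 0.02 (1426020_at), -0.02 (1426349_s_at) and 0.04 (1452036_a_at). Together the 6 sets of Lbr, Emd and Tmpo were mixed in direction across the lines without exception. The set of Tmpo with the most negative mean, 1421237_at, took it from line 6A alone, where the difference was -0.31 against 0.00, 0.04 and 0.01 in the others. On this set 3 arrays, both of 6B and the rescued array of 84, had the same value, so the 0.00 in 6B is a tie.

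Other genes of the envelope were read from lists, with 1 probe set per gene, that of the highest mean level, and limma called 0 of their genes in the rescue comparison. Of 13 listed LEM-domain and inner membrane genes 7 were measured, and 2 were higher in all 4 lines, against 12% of all probe sets. These were Tor1a, an ATPase of the perinuclear space, by 0.15, and Tmem43, a membrane partner of emerin, by 0.14, while Nrm, nurim, differed by -0.10. Of 7 other LINC complex genes 2 were measured, Syne4 at 0.14 and Spag4 at -0.03, neither with 1 direction in all lines. The 6 measured of 7 lamin processing enzymes had a median of -0.01, with the farnesyltransferase subunits Fntb at -0.14 and Fnta at 0.06, and the prelamin A protease Zmpste24 at 0.08. Of 7 chromatin partners 6 were measured, with a median of 0.03. In it Cbx1, an HP1 protein that binds Lbr, was lower in all 4 lines with a mean of -0.14, Prr14, a heterochromatin tether, stood at 0.11 and the deacetylase Hdac3 at 0.03. Of 31 nuclear pore genes 25 were measured with a median of -0.03, and 5 of these were lower in every line and 0 higher, against 11.8% and 12% of all probe sets. The largest were Ndc1, a pore membrane anchor, at 0.22, the export factor Rae1 at -0.16 and Seh1l at -0.13.

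The sterol enzymes next to Lbr in cholesterol synthesis were higher in the rescued arrays, beside a mean difference of -0.04 for Lbr. Of 11 listed, 10 were measured and 10 were higher in all 4 lines, against 12% of all probe sets, with a median log2 difference of 0.31 and a range from 0.10 to 0.46. Line 84 carried much of it, since the list's mean difference was 0.64 there against 0.21 in 6A, 0.15 in 6B and 0.14 in 6D, and without line 84 the median was 0.19, a reading chosen after seeing the data. The direction was the same in every line. Cholesterol synthesis was the subject of the study on these arrays, so the list is not independent evidence of its direction. Sc5d, the sterol C5 desaturase, had 0.46, Lss, lanosterol synthase, had 0.35 and Hsd17b7, a 3-keto reductase, had 0.32. Tm7sf2, which encodes the other C14 sterol reductase, had 0.26 and was higher in 4 of 4 lines, by 0.007 to 0.47. Lbr was higher in 1 of 4, with line differences from -0.083 to 0.0049, so some of these directions rest on differences near 0.

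Levels of neutrophil granule genes are given beside those of Syne1. Of 19 genes of secondary and tertiary neutrophil granules, 17 were measured, 5 of them in the dimmest 40% of the table, and 11 were higher in all 4 lines, 0 lower, against 12% and 11.8% of all probe sets, with a median of 0.54 (0.33 without line 84). Limma called 0 of the 17 in the rescue comparison. The list's mean level was 7.75 to 8.51 in the knockout arrays and 8.81 to 9.79 in the rescued arrays. By line its mean difference was 1.36 in 6A, 0.59 in 6B, 0.30 in 6D and 1.33 in 84. Syne1 (1455493_at) had 1.80, 0.71, 0.60 and 1.86, so the lines fell in nearly the same order. That order was not particular to this list. In the order 6A, 6B, 6D and 84, primary granule genes differed by 0.3115, 0.1625, 0.1554 and 0.9019. The sterol genes above had 0.21, 0.15, 0.14 and 0.64, and mast cell genes 0.82, 0.15, 0.41 and 1.04. Proliferation genes had -0.009, -0.028, 0.004 and 0.10. Camp, the cathelicidin of secondary granules, differed by 2.33, Ngp by 2.01 and lactoferrin (Ltf) by 1.54. Over the 8 arrays Syne1 and the mean of the secondary and tertiary granule list had an r of 0.911 and a rho of 0.976. These points share the cell lines and the rescue. Of primary, azurophil granule genes 7 of 10 were measured, and 5 were higher in all 4 lines, against 12% of all probe sets. Their mean levels were 11.98 to 12.65 in the knockout and 12.72 to 12.88 in the rescued arrays, and with Syne1 r was 0.728 and rho 0.905. Of stem and progenitor genes 14 of 14 were measured, with a median of -0.16. In all 4 lines 4 of them were lower, against 11.8% of all probe sets, and r was -0.64 and rho -0.833. With the 10 sterol genes r was 0.584 and rho 0.81. With 25 of 26 proliferation genes, at 11.23 to 11.40 and 11.33 to 11.40, r was 0.105 and rho 0.048. Their part in the Syne1 difference was not tested. In bulk RNA a change in the share of maturing cells and a change in RNA per cell cannot be told apart.

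**Figure D3:**
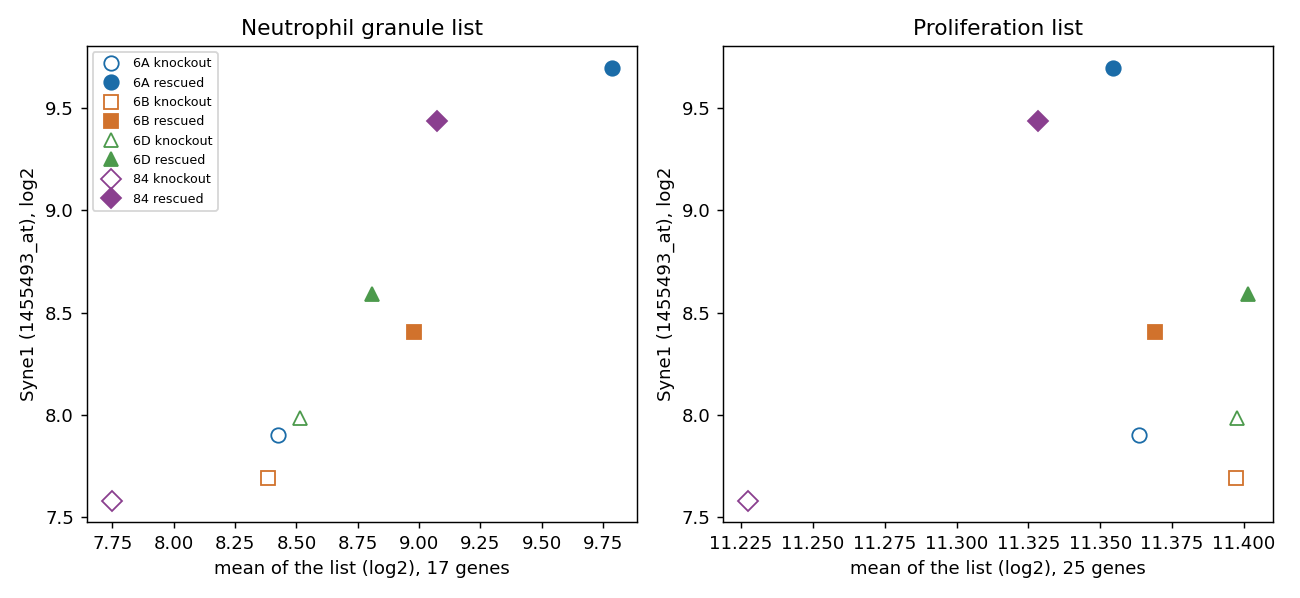
Log2 level of Syne1 (1455493_at) against the mean log2 level of the neutrophil granule list and of the proliferation list, 1 point per array. The arrays with more granule RNA have more Syne1, and the proliferation means lie between 11.23 and 11.40 on all arrays.

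Genes of other cell types were read as well, although levels of different probe sets do not set a cell type. In the dimmest 40% of the table lay 0 of 14 measured stem and progenitor genes, 9 of 12 lymphoid, 6 of 9 hepatocyte and 8 of 9 fibroblast or endothelial genes. Monocyte genes (13 of 13 measured, 3 higher and 3 lower in all 4 lines, against 12% and 11.8% of all probe sets) were mixed. Of 12 measured mast cell genes of 13, 8 were in the dimmest 40% and 6 were higher in all 4 lines, against 12% of all probe sets, with mean levels of 5.73 to 6.98 in knockout and 5.88 to 8.02 in rescued arrays. Of erythroid and megakaryocyte genes 9 of 12 and 8 of 9 were measured, with medians of 0.08 and -0.03 (0.08 and 0.10 without line 84).

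The choice of the genes did not use differences between cell lines, which could therefore be tested, for these lines only. The knockout and rescued array of a line stood as its replicates. By limma's F test at an adjusted p of 0.05, 2 of the 20 member probe sets, Syne2 and Lmnb2 1448531_at, differed between lines, against 10.8% of all probe sets, a share near the background. The count was 1 when any array other than the rescued array of line 84 was left out, and 0 without line 84. Line 84 against the mean of the other 3 lines gave 3 of 20 called, all lower in line 84, against 27.5% of all called in either direction and 13.4% called lower. Syne2 was the clearest. Its difference in line 84 was -2.08 on the log2 scale with SE 0.11 (limma adjusted p 0.000422), so its level was 4.22-fold higher in the other lines. The difference was -2.17 among the knockout arrays and -1.98 among the rescued arrays, and both arrays of line 84 lay below all 6 others. Leaving out any array kept the call.

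**Figure D4:**
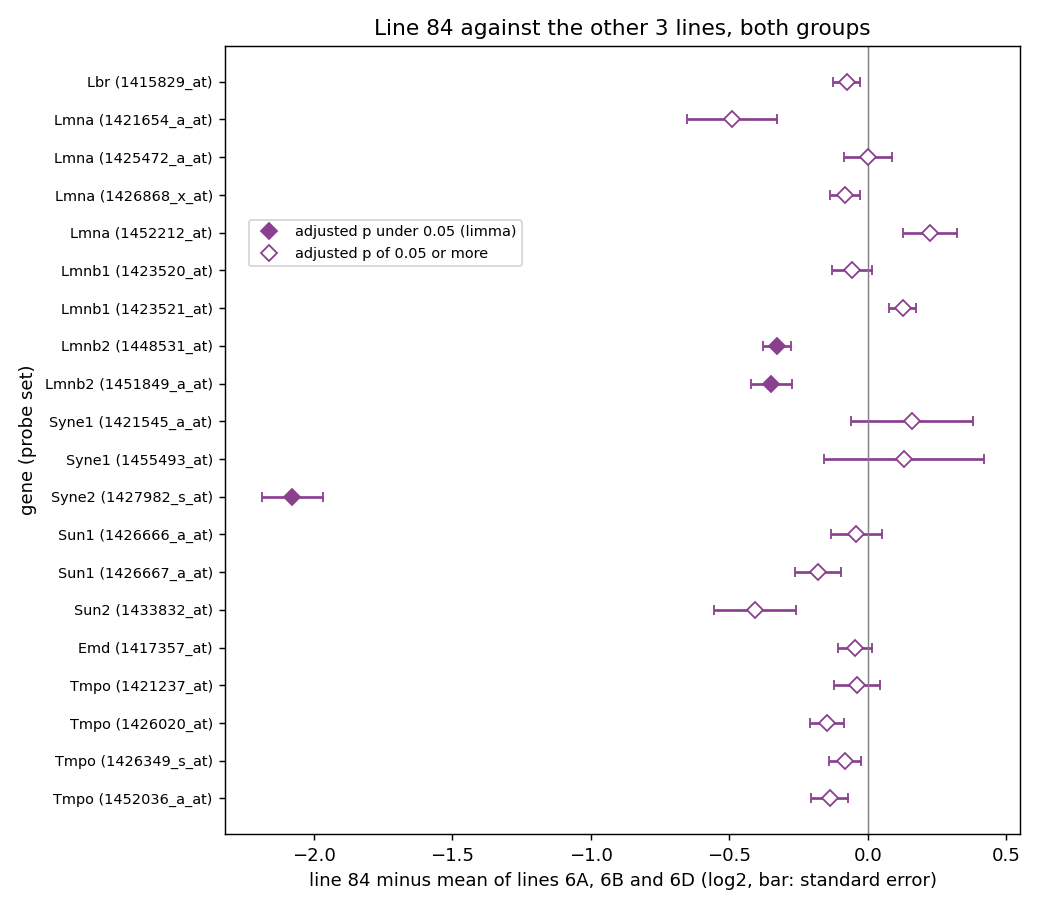
Line 84 minus the mean of the other 3 lines in log2 expression for the 20 probe sets, with the standard error and the called sets filled. Syne2 lies at -2.08, the Lmnb2 sets at -0.33 and -0.35, and the remaining sets between -0.49 and 0.22.

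Both Lmnb2 sets were lower in line 84 as well. Set 1448531_at had 9.38, 9.22, 9.32 and 8.97 in the knockout arrays and 9.30, 9.18, 9.37 and 8.96 in the rescued arrays, a difference of -0.33 with SE 0.05 (limma adjusted p 0.00885) or 1.26-fold, and line 84 lay below all other arrays. Set 1451849_a_at, whose arrays are given above, differed by -0.35 with SE 0.07 (limma adjusted p 0.0221), and its call was lost when any of 4 arrays was left out. Without the knockout array of 84 its adjusted p was 0.119, and without the knockout array of 6B, the rescued array of 6B or that of 6D it was 0.0686, 0.0559 and 0.06. Neither nesprin-1 nor Lbr was called, with differences of 0.13 (limma adjusted p 0.764) for Syne1 on 1455493_at and -0.08 (0.291) for Lbr. Sun2 differed by -0.41 (0.0957) and the brightest Lmna set by -0.49 (0.0762).

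Line 84 stood apart in other lists too. Genes of the interferon response (12 of 15 measured) had a mean level of 9.82 in its knockout and 7.47 in its rescued array against 6.25 to 6.46 in the other arrays. Tm7sf2 differed by -1.23 on the log2 scale in it (limma adjusted p 0.00184), and Tmem43 by -0.44 (0.00387). Cell type markers differed too, beside 14.1% of all probe sets called higher in line 84 and 13.4% called lower. Of 12 mast cell genes 5 were called higher in line 84, among them Cpa3, a mast cell protease, by 4.18 (limma adjusted p 0.00413) and Gata2 by 2.77 (0.000287). The list's mean level was 6.98 and 8.02 in line 84 against 5.73 to 6.65 in the other arrays. Of 9 erythroid genes 4 were called higher, such as Gata1 by 1.81, and of 8 megakaryocyte genes 4 were called higher, such as Itga2b by 2.56, and 2 lower. Of 13 monocyte genes 6 were called lower and 1 higher, with Mrc1 at -1.65. Among 14 stem and progenitor genes 6 were called higher and 4 lower, and among 17 neutrophil granule genes 2 higher and 4 lower. Proliferation genes (25 measured) had 1 called higher and 8 lower. Of 7 azurophil genes 2 were called lower, Elane (-2.45) and Cst7, and 1 higher, Nkg7 (3.78), too few to set against those shares. These genes were chosen after their values were seen. The part of all these in the Syne2 and Lmnb2 differences was not tested. Each line had 1 array per group, so a line and its culture cannot be told apart.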

How the data were processed

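RNA of 8 samples was hybridized to Affymetrix mouse arrays. The methods name the full Mouse Genome array and the titles its A version, which the table of 22690 probe sets fits. Normalization by the authors was RMA, and the log2 values they deposited were taken unchanged. No background signal or detection call was used here, so dim probe sets were marked as the lowest 40% by mean level (under 6.45). After 64 controls were left out, 22626 probe sets were tested, of which 20380 had 1 gene symbol, 691 several and 1555 none, and 20351 of the 1-symbol sets were found in the RefSeq gene table. Array medians lay within 7.32 to 7.35, no pair of arrays was identical, and 8.57% of probe sets had the same value on 3 or more arrays, including 3 of the 20 member sets. The count of unmapped columns was 0.

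Values were fitted in R 4.3.3 with limma 3.58.1 (lmFit, eBayes) with group and cell line as terms. Adjustment was Benjamini-Hochberg over all probe sets, at 12.3% for the rescue comparison (the methods' rate) and 0.05 for lines. The knockout and rescued array of a line come from the same cell line, and once group means were subtracted they correlated at 0.623 to 0.811. SAM was computed from its published statistic over 16 sign changes or 70 arrangements. The fits were also run on simulated data in which the added rescue effect was the same in every line, unlike that of Syne1. No result here rests on those runs. Precision is limited by the number of arrays, and p-values of the blocked fit rest on the spread left after group and line terms. For lines, the knockout and rescued array of a line stood as its replicates. Those p-values thus do not measure the spread among further lines. Samples were grouped by their labels. Alternatives were no block, SAM, the methods' t-test, trended and robust variances, quantile normalization, a filter on dim sets, other thresholds and gene means. Each array was also left out, and so was the whole of line 84. In the blocked rescue fit, leaving out either array of a line gives the estimate without that line. The text names every member gene, gives its probe sets singly or as a range, and names from each other envelope list up to 3 genes with the largest absolute difference; Tm7sf2 and the named granule genes were chosen after their values were seen. Members and lists were chosen with earlier results of these data known. The authors' own comparisons were not used.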

Additional observations from a re-analysis of the deposited data

Results flagged for a closer look

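Of 40 groups of 4 arrays (20 probe sets in 2 groups), 3 held an array far from the others by Dixon's test, and chance gives about 1 in 20. Syne2 (1427982_s_at) was at 5.24 in the knockout array of line 84 against 7.27 to 7.57 in the others, and at 5.78 in the rescued array of line 84 against 7.61 to 7.88, so the same line was low on both arrays. Tmpo (1421237_at) was at 7.40 in the knockout array of line 6A against 7.15 to 7.16 in the others, where its rescued array was at 7.09. No other Tmpo set had such an array. On 1421237_at 3 arrays had the same value, 7.16, the knockout array of 6B among them.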

How the results depend on the processing

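In the rescue comparison limma called 0 members with the block, without it, with each array left out and without line 84. Paired SAM called 2 (592 of all probe sets), unpaired SAM 1 (50) and the methods' unadjusted t-test 2 (1179). The replicate block by line mattered for the whole table, where 18 probe sets were called with it and 0 without it. Trended and robust variances gave 100, a threshold of 0.05 gave 4 and gene means gave 3. Leaving out an array or line 84 gave 0 to 50. For lines, the F test called 2 members, 1 at a threshold of 0.01 (535 of all), 1 with gene means (1477), 0 without line 84 (58) and 1 to 2 without any 1 array (684 at the lowest). Line 84 against the others gave 3 calls, and 2 to 6 without any 1 array, with 6 reached without the rescued array of line 84, where Lmna 1421654_a_at (-0.72), Lmna 1452212_at (0.43) and Sun1 1426667_a_at (-0.31) were added. Uncalled line 84 differences changed sign for Lmna 1425472_a_at, which was 0.0013, to -0.055 after quantile normalization. Leaving out 1 array moved it between -0.16 and 0.17, Syne1 1421545_a_at between -0.21 and 0.53, Syne1 1455493_at between -0.28 and 0.54, Sun1 1426666_a_at between -0.23 and 0.14, and Tmpo 1421237_at between -0.093 and 0.016. The cause was not tested. With 1 array per line and group, a difference within 1 line cannot be told from the spread between arrays. The SD of the 4 rescued minus knockout line differences had a median of 0.12 over all probe sets.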

Other observations

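The probe sets of other genes most like Syne1 (1455493_at) over the 8 arrays were those of Syngr2 (r 0.984), Adgrl4 (0.973), Misp (0.968), Grina (0.962) and Bbs9 (0.960), and those most like Lbr were Spsb4 (0.975), Rnpc3 (0.971), Stam (0.963), Igf2bp3 (0.962) and Paip1 (0.961). They were picked as the highest of all probe sets, and 8 arrays of 4 lines share the lines and the rescue.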
